A study of Saccharomyces cerevisiae with 16 samples.

Results

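The regions described here are the 300 bp on each side of the nuclear tRNA genes of budding yeast, with the gene bodies between them. All 275 nuclear tRNA genes of the R64 gene table were taken, out of 6431 nuclear genes of every kind, which gives 550 flanks among 12837 regions measured. A flank was kept apart from coding starts when no base of it lay within 300 bp of the first base of a nuclear protein-coding gene. This held for 334 flanks (188 upstream of the tRNA gene and 146 downstream), which are called the flanks apart below. The other 216 (87 upstream and 129 downstream) lay within 300 bp of a coding start and are reported separately, and 76 of them contained a start. Flanks are not independent of each other: 12 of them overlapped another tRNA gene and 24 overlapped the flank of another tRNA gene.

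The measurement is H3K18ac, acetylation of lysine 18 of histone H3, by chromatin immunoprecipitation and sequencing (ChIP-seq) in the Yeast Metabolic Cycle (YMC), in which a continuous culture swings between phases of high and low oxygen use. All libraries come from 1 strain, CEN.PK MATa with SPT7-FLAG::natMX, that is, with a FLAG tag on the SAGA subunit Spt7, and from the same H3K18ac antibody. There were 16 time points between 48.32 and 51.95 h with 1 library each. By the oxygen curve of the study, time points 3 to 5 are oxidative (OX, n = 3), 6 to 11 are reductive building (RB, n = 6), and 1, 2 and 12 to 16 are reductive charging (RC, n = 7). Within a phase, successive time points were treated as replicates, so p-values measure only the spread between these time points, which may be technical. The H3K18ac level of a region is its mean coverage divided by the mean coverage of the nuclear genome in the same library, so a level of 1 is the genome average. Mean nuclear coverage ranged from 27.5 to 39.4 reads per base, no base exceeded 102 reads in any library, and 0.284 to 4.89% of the flank bases lay within 10 reads of that ceiling, which compresses high levels.

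tRNA genes are transcribed by RNA polymerase III. The assembly factor TFIIIC binds promoter elements inside the gene, it places TFIIIB just upstream, and TFIIIB recruits the polymerase, so the machinery covers the short gene itself in place of a nucleosome. Many tRNA genes exist as nearly identical copies spread over the chromosomes, and some act as barriers between active and silent chromatin. H3K18ac is deposited in yeast mainly by the acetyltransferase Gcn5 and is best known from the starts of active protein-coding genes.

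The flanks of tRNA genes carried H3K18ac at about the genome average and below the starts of coding genes. The median level over the 16 time points was 0.953 in the 334 flanks apart (quartiles 0.539 and 1.44). It was 1.45 in the 216 flanks near a coding start, 1.57 in the 300 bp upstream of the 6002 nuclear coding starts, and 0.658 in the last 300 bp of the 2240 coding genes longer than 1500 bp. The order held in each library: the median of the flanks apart was below that of the flanks near a start, below that of the coding upstream regions and above that of the coding ends at 16 of 16 time points. The flanks apart ranged from 0 to 2.66, 158 of 334 stood above the genome average, and 77 exceeded 1.5. A low acetylation per nucleosome and a low number of nucleosomes cannot be told apart, since H3 was not used here.

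**Figure D1:**
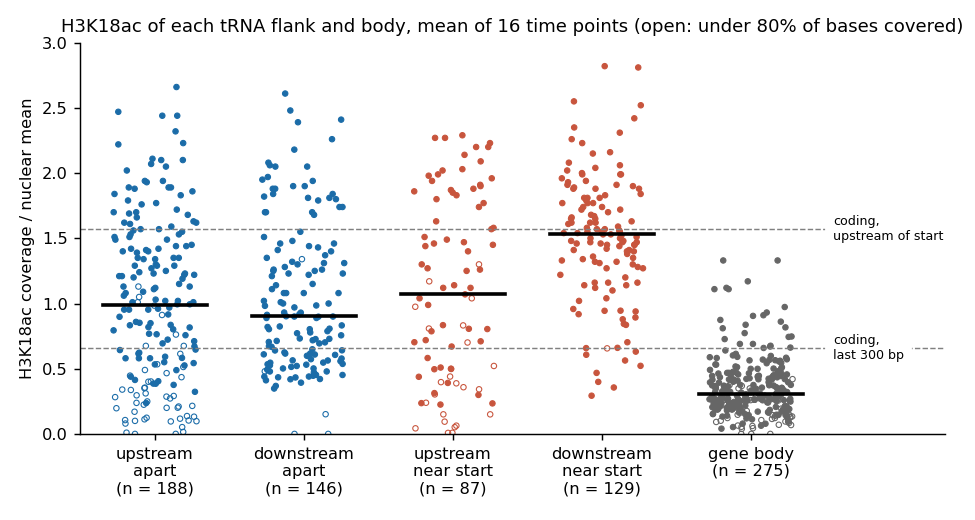
H3K18ac coverage divided by the nuclear mean (mean of 16 time points) for each tRNA flank and gene body, with flanks grouped by side and by whether a coding start lies within 300 bp. Points are regions, open points have under 80% of their bases covered, black bars are medians (0.989, 0.908, 1.07, 1.53 and 0.303 by column), and dashed lines are the coding medians of 1.57 and 0.658.

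The order of the sides depended on the distance to a coding start and on the part of the flank measured. Near a start, upstream flanks had a median level of 1.07 and downstream flanks 1.53, and the upstream median was the lower one at 16 of 16 time points. Among the 68 genes with both flanks near a start, the medians were 1.13 upstream and 1.48 downstream. In these genes the upstream flank was higher in 31 and lower in 37, with a median difference of -0.11 on the log2 scale. Away from starts the order was the other way round, with 0.989 upstream and 0.908 downstream, the upstream median being the higher at 15 of 16 time points. This order turned with flanks of 500 bp, to 0.936 upstream and 0.996 downstream, and with flanks moved out by 60 bp, to 0.978 and 1.02. The gap with 300 bp was at most 0.139 at any time point, small beside the spread between flanks, whose quartiles were 0.461 and 1.46 upstream and 0.583 and 1.43 downstream.

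Bases that no library covered weigh on the upstream side. On average 15.2% of the bases of upstream flanks apart were uncovered in all libraries, against 2.24% in downstream flanks apart. More than 20% of the bases were uncovered in 76 of 275 upstream flanks and in 6 of 275 downstream flanks. Over covered bases only, the median of the upstream flanks apart exceeded that of the downstream flanks apart at 16 of 16 time points, by 0.0309 to 0.218. Of the 127 genes with both flanks apart, the upstream flank was higher in 60 and lower in 66. Among the 80 of these genes with over 95% of both flanks covered, it was higher in 52 and lower in 28, with a median difference of 0.28 on the log2 scale. Reads that map to several places were discarded upstream of these files, so repeats beside tRNA genes can lose their coverage. Their part in these gaps was not tested.

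H3K18ac coverage fell steeply towards the gene. At 5 bp from the gene end, mean coverage was 0.708 upstream and 0.588 downstream in the flanks apart. At 105 bp it had reached 1.04 on both sides, and at 295 bp it was 1.06 upstream and 1.21 downstream. Flanks near a start had 0.745 upstream and 0.777 downstream at 5 bp, and at 295 bp 1.14 upstream and 1.83 downstream. Over covered bases only, the flanks apart had 1.16 upstream and 1.05 downstream at 105 bp, and 1.39 and 1.24 at 295 bp, so the order of the sides at 295 bp turned. The flanks near a start had 1.65 upstream and 1.83 downstream at 295 bp on that measure. In the gene body, coverage was 0.585 in the first of 10 equal parts, 0.161 in the sixth and 0.537 in the last, a V-shaped trough with its lowest point in the middle of the gene. Reads that map to several places were discarded, so repeated tRNA genes can lose coverage in and beside the gene. The part of such lost reads in the trough was not tested.

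**Figure D2:**
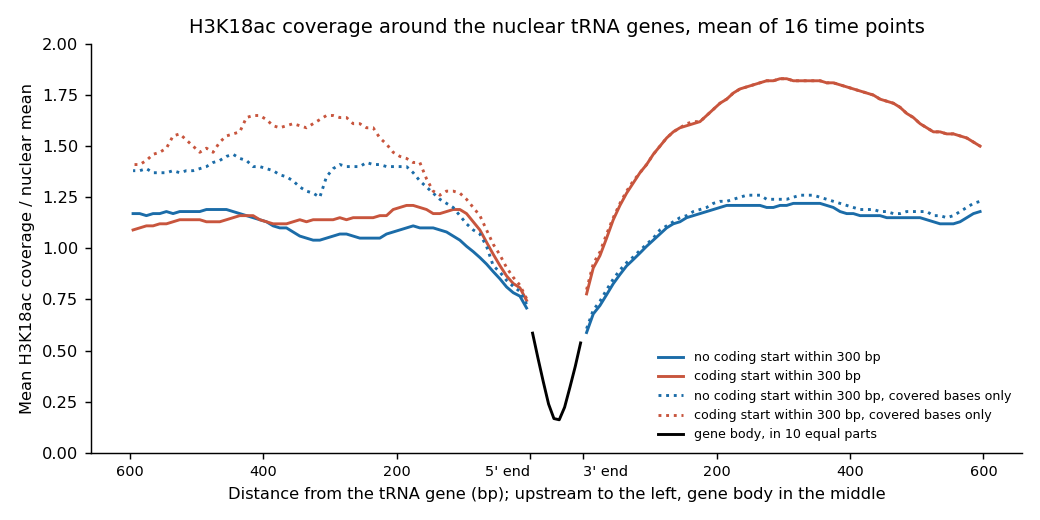
Mean H3K18ac coverage divided by the nuclear mean against the distance from the 275 tRNA genes in bp, averaged over 16 time points, with the gene body drawn in 10 equal parts. Solid lines use all bases and dotted lines only bases covered in some library; the trough in the gene reaches 0.161, and the flanks downstream of the gene and near a coding start climb to 1.83.

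The tRNA genes themselves had the lowest median coverage of the groups compared, with the same limit from discarded reads. The median body was at 0.303 (quartiles 0.203 and 0.441), the median of the flanks apart exceeded that of the bodies at 16 of 16 time points, and the body was below both of its flanks in 235 of 275 genes. Only 6 bodies lay above the genome average: TRT2 and SUF4 at 1.33 each, SUF10 at 1.17, SUF2 at 1.12, and SUP61 and YNCO0012C at 1.11 each. The 194 bodies with every base covered had a median of 0.345, and the 81 with uncovered bases had 0.194, of which 3 had no covered base at all.

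Families of tRNA genes that the table names differed in this trough. The 5 single-copy genes had bodies between 0.598 and 1.33 with a median of 0.973: SUP61 reads serine codons, TRT2 threonine, TRR4 and HSX1 arginine, and CDC65 glutamine. The bodies of the multicopy families grouped here were lower. Other named genes were not grouped, among them SUF4, SUF10 and SUF2, whose bodies lay above the genome average. The 8 tyrosine genes (SUP2 to SUP8 and SUP11, isolated as nonsense suppressors) ranged from 0.187 to 0.499. The 4 initiator methionine genes (IMT1 to IMT4), whose tRNA starts translation, ranged from 0.333 to 0.614. The 5 elongator methionine genes (EMT1 to EMT5) ranged from 0.0403 to 0.567, and the 3 leucine suppressor genes SUP53, SUP54 and SUP56 from 0.0439 to 0.259. The single-copy bodies overlapped none of these families except the initiator genes, the lowest single-copy body being 0.598 and the highest initiator body 0.614. Every base of the single-copy and methionine bodies was covered, whereas 1.12 to 18% of the bases of the tyrosine bodies and 25.4 to 66.7% of the leucine bodies were not. Reads that fit several copies were discarded, so loss of shared reads and a lower H3K18ac over those copies cannot be told apart with these files, and the families were grouped after the gene table was seen.

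Median upstream levels of the flanks were 1.13 for the single-copy genes, 1.08 for the leucine genes, 0.920 for the tyrosine genes, 1.45 for the initiator and 0.582 for the elongator methionine genes. Median downstream levels were 1.65 for the single-copy genes, 1.81 for the leucine genes, 1.41 for the tyrosine genes, 1.33 for the initiator and 1.14 for the elongator methionine genes. Between the upstream and the downstream flank of a gene the correlation across 127 genes with both flanks apart was 0.29, a description over genes that share libraries and in part neighbours.

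Position relative to coding genes went with the level of a flank. Among downstream flanks apart, the 68 that overlapped a coding region had a median of 0.709 and the 78 that overlapped none had 1.26. Upstream flanks apart had a median of 1.11 where the nearest coding start was within 1000 bp (124 flanks) and 0.798 where it was farther (64 flanks). For downstream flanks apart these values were 1.11 (83 flanks) and 0.702 (63 flanks). Near a coding start, median levels downstream were 1.49 in the 58 flanks that held the start and 1.53 in the 71 that did not. Upstream they were 1.36 in 18 flanks that held it and 0.989 in 69 that did not, with 8.44% and 15.7% of bases uncovered.

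Single flanks apart covered the whole range of levels. The highest were the flank upstream of YNCL0039W (2.66, chromosome XII, 784054 to 784353), 560 bp from the start of NMA1, the flank downstream of YNCE0023W (2.61, chromosome V, 438774 to 439073), the flank downstream of YNCJ0013C (2.48), 325 bp from the start of the nucleoporin gene NUP192, and the flank upstream of YNCE0008C (2.47), 319 bp from UBC8, a ubiquitin-conjugating enzyme. The lowest with at least 80% of bases covered were the flanks upstream of YNCH0016C (0.237) and YNCC0014W (0.323) and those downstream of YNCE0021C (0.348) and YNCL0049C (0.368). All 8 had every base covered.

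YNCC0014W (chromosome III, 295484 to 295556) had unequal flanks. Its upstream side faces the silent mating-type cassette HMR, and the start of HMRA1, the silent copy of the a1 mating-type gene, lies 1349 bp from that flank. Its upstream flank was at 0.265, 0.225 and 0.299 at the OX time points, at 0.216, 0.258 and 0.289 (lowest, median, highest) in RB and at 0.309, 0.352 and 0.656 in RC. Its downstream flank was at 1.46, 1.17 and 1.21 in OX, at 0.850, 1.03 and 1.23 in RB and at 0.982, 1.15 and 1.39 in RC. The HMR-facing side was therefore below the genome average and below the other side in all 16 libraries. Within that low level, every RC time point exceeded every OX and RB time point, and the RC difference was 0.47 ± 0.12 on the log2 scale (SE; limma, adjusted p = 0.00372), with the highest value at time point 16. The region downstream of the HMRA1 start itself stood at 2.02. The strain is MATa and the table carries the alpha genes at MAT, so reads of the active a1 gene and of its silent copy cannot be told apart.

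The share of tRNA flanks that differed between the phases stood below that of coding starts, a gap given here without a test. Each region with a mean coverage of at least 5 was tested with limma on log2 of the level plus 0.1, and p-values were adjusted over all 12229 such regions. Over all of them, 66.5% differed between the phases (moderated F test, adjusted p under 0.05). Of the flanks apart, 153 of the 315 tested were called (48.6%), of the flanks near a start 127 of 208 (61.1%), and of the gene bodies 65 of 230 (28.3%), beside 71.1% of the coding upstream and 64.6% of the coding downstream regions. Near a start the sides differed, with 39 of 79 upstream flanks called (49.4%) and 88 of 129 downstream flanks (68.2%). This downstream share lay between those of the coding downstream and the coding upstream regions. For the flanks apart, the order was the same at like coverage. Among flanks apart between the quartiles of their own coverage, 77 of 157 were called (49.0%), and among coding upstream regions in the same coverage range 1598 of 2216 (72.1%). The range of a flank over the 16 time points was similar, with a median of 0.57 (log2) in the flanks apart and 0.62 in the coding upstream regions, and it was 0.84 in the gene bodies.

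**Figure D3:**
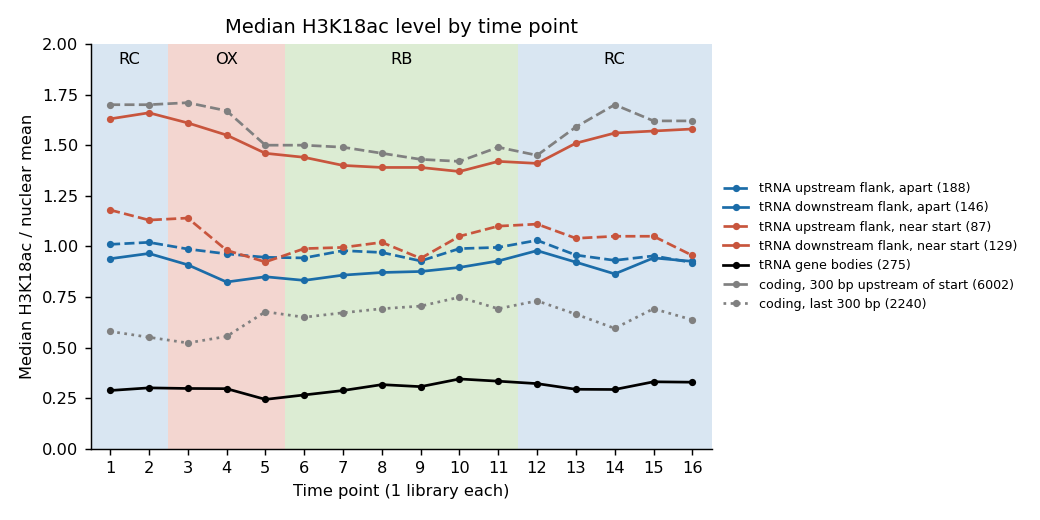
Median H3K18ac level of each group of regions at the 16 time points (1 library each), with OX, RB and RC shaded. Flanks apart stay between 0.824 and 1.03, the coding upstream regions between 1.42 and 1.71, and the gene bodies between 0.244 and 0.345.

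The median of the flanks apart moved little through the cycle. It was 0.902 ± 0.0404 in OX (SD over time points, n = 3), 0.924 ± 0.0284 in RB (n = 6) and 0.959 ± 0.0372 in RC (n = 7), and the 3 phases overlapped. For flanks near a start it was 1.41 ± 0.111, 1.34 ± 0.014 and 1.45 ± 0.0929 in the same order, and for coding upstream regions 1.63 ± 0.113, 1.47 ± 0.0333 and 1.63 ± 0.0897. The gene bodies had 0.280 ± 0.031, 0.310 ± 0.0291 and 0.308 ± 0.0185.

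In OX, tRNA flanks apart were called higher in 32 cases and lower in 38 of 315 (10.2% and 12.1%), where 26.7% of all regions were higher and 15.4% lower. The median difference of OX from the mean of the other phases was -0.05 (log2) in the flanks apart, against 0.04 over all regions. Flanks near a coding start were higher in 42 cases and lower in 26 of 208. Gene bodies were higher in 9 and lower in 37 of 230, with a median difference of -0.11. The bodies' direction depended on the scaling: quantile normalization gave 22 higher and 17 lower and a median of 0.01, and division by median ratios 5 higher and 48 lower. Other scalings moved all regions towards lower calls in OX, and the tRNA flanks with them. Division by median ratios gave 20 higher and 61 lower for the flanks apart, 39 and 39 for the flanks near a start, and 2950 and 2869 over all 12229 regions. Quantile normalization gave 23 and 54, 36 and 47, and 2574 and 3234 in the same order, and the ceiling correction 26 and 74, 41 and 46, and 3082 and 2981. The main counts over all regions were 3269 and 1883. Time point 4 carried many of these calls. Without it 7 flanks apart were higher and 8 lower, against 27 and 54 without time point 3 and 32 and 30 without time point 5. Without time point 4, flanks near a start were higher in 23 cases and lower in 10, and bodies in 1 and 14, while the regions called in either direction over the whole table fell to 1925, against 5152 with it. Without time point 5, bodies were higher in 9 cases and lower in 17.

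In RB, 34 flanks apart were higher and 36 lower, where 5.51% of all regions were higher and 27.6% lower. That is 10.8% and 11.4% of the 315 tested. Flanks near a start were higher in 12 cases and lower in 53, and bodies were higher in 16 and lower in 8. The split followed the scaling, over all regions as well, where 674 were higher and 3380 lower as reported. After division by median ratios, 57 flanks apart were higher and 7 lower, against 1540 and 1577 over all regions. After quantile normalization the counts were 43 and 17, against 1926 and 1665, and after the ceiling correction 59 and 20, against 1281 and 2320. The median RB difference of all regions was -0.10 as reported and 0.00 after division by median ratios, which for flanks near a start gave 28 higher and 18 lower. Leaving out time point 4, 8 or 10 took the RB calls of the flanks near a start to 40, 43 and 42, against 65 with all. The bodies' split turned to 5 higher and 11 lower by quantile normalization and to 9 higher and 12 lower without time point 5, and their 24 calls came to 15, 14 and 12 without time point 8, 9 or 10.

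In RC, 78 flanks apart were higher and 43 lower (24.8% and 13.7%), where 29.9% of all regions were higher and 19.4% lower. Flanks near a start were higher in 66 cases and lower in 28, and bodies were higher in 46 and lower in 11. After division by median ratios, 68 flanks apart were higher and 57 lower, 55 flanks near a start were higher and 45 lower, and 34 bodies were higher and 16 lower, while over all regions 3209 were higher and 3380 lower, against 3659 and 2372 as reported. By quantile normalization these counts were 65 and 59 for the flanks apart, 62 and 43 for the flanks near a start, 28 and 24 for the bodies, and 3531 and 3235 over all regions.

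**Figure D4:**
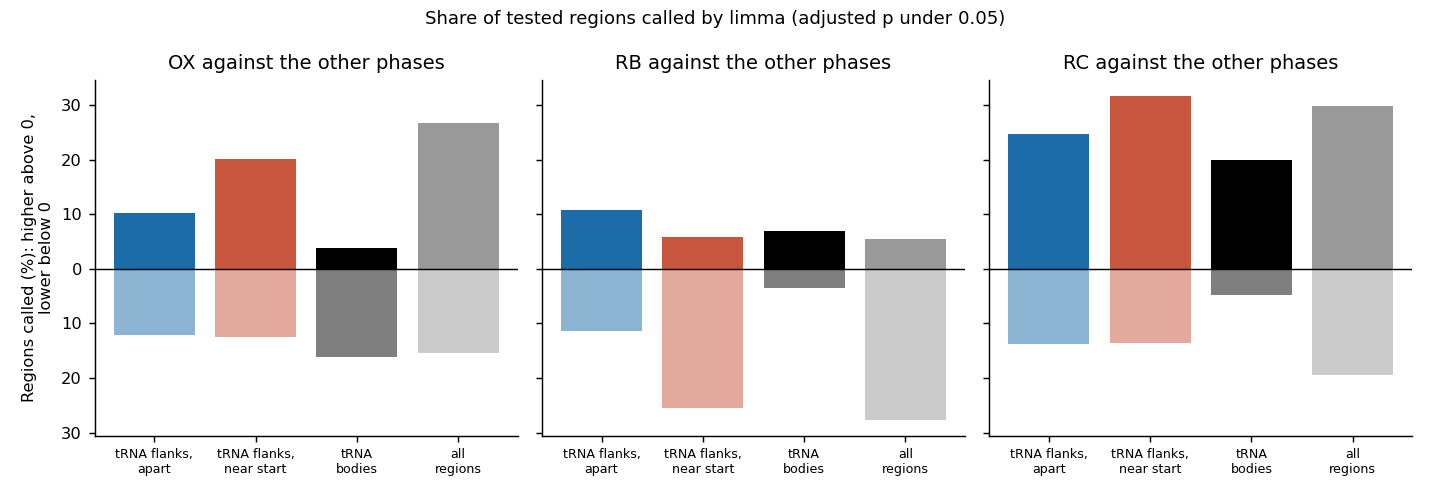
Share of the tested regions called higher (above 0) or lower (below 0) in each phase against the mean of the other phases by limma at an adjusted p under 0.05, for tRNA flanks apart (315), flanks near a coding start (208), gene bodies (230) and all regions (12229). In OX, 10.2% of the flanks apart were higher, against 26.7% of all regions, and in RB 11.4% were lower, against 27.6%.

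Flanks in which every time point of a phase lay beyond all others were few. Over all regions, 14.1% were separated upwards and 1.7% downwards in OX. Of the 315 flanks apart, 12 and 5 were. In RB, 0.581% of all regions lay above and 1.82% below all other time points, against 4 and 3 flanks apart. In RC these shares were 2.02% and 0.744%, against 5 and 3 flanks apart.

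TRR4, the single-copy gene for an arginine tRNA, lay among the flanks apart with the largest OX differences, and both of its sides moved. Downstream (chromosome XII, 818681 to 818980) the level was 2.02, 2.67 and 1.97 at the OX time points, 0.868, 1.24 and 1.41 (lowest, median, highest) in RB, and 1.03, 1.25 and 1.70 in RC. Every OX time point was above all others, and the OX difference was 0.79 ± 0.14 on the log2 scale (SE; limma, adjusted p = 0.000455). Upstream, OX levels were 1.41, 1.73 and 1.59, against 0.870 to 1.22 in RB and 0.733 to 1.18 in RC, again without overlap (0.58 ± 0.12, adjusted p = 0.00132). The nearest coding start, 332 bp from the downstream flank, belongs to RPL26A, a protein of the large ribosomal subunit. Its own downstream region had an OX difference of 0.56 ± 0.20 (adjusted p = 0.0347) and correlated with the TRR4 downstream flank with r = 0.82 over the 16 time points.

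YNCG0033W and SUF17 followed in OX. Upstream of YNCG0033W, H3K18ac stood at 1.06, 2.03 and 1.18 in OX, at 0.806 to 1.00 in RB and at 0.646 to 0.799 in RC. All 3 OX values were the highest and all 7 RC values the lowest of the 16, with differences of 0.70 ± 0.12 in OX (limma, adjusted p = 0.000431) and -0.55 ± 0.10 in RC (adjusted p = 0.000633). The downstream region of PPT1, whose start lies 619 bp from this flank, also rose in OX (1.04 ± 0.16, adjusted p = 0.000168, r = 0.77 with the flank). Upstream of SUF17, a frameshift suppressor locus, the level was 0.933, 1.28 and 1.11 in OX, 0.570 to 0.783 in RB and 0.573 to 0.827 in RC (0.62 ± 0.11, adjusted p = 0.000329). It lies 366 bp from TSR4, a factor of small-subunit assembly, whose downstream region also rose in OX (0.51 ± 0.07, adjusted p = 9.89e-05).

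Beside SUF10, H3K18ac was lower in OX than in the other phases. SUF10 is another frameshift suppressor locus, and its downstream flank (chromosome XIV, 631546 to 631845) was at 1.98, 1.13 and 1.57 in OX, at 2.00, 2.36 and 2.48 (lowest, median, highest) in RB, and at 2.17, 2.47 and 2.89 in RC. OX lay below all other time points (-0.63 ± 0.11 on the log2 scale, limma, adjusted p = 0.000423). The SUF10 body changed alike, with 0.596 to 0.999 in OX, 1.07 to 1.48 in RB and 1.14 to 1.38 in RC (-0.62 ± 0.11, adjusted p = 0.000368). The start of CIT1, the mitochondrial citrate synthase, lies 485 bp away, and its downstream region fell in OX by about the same amount (-0.61 ± 0.13, adjusted p = 0.00167; r = 0.90 with the flank).

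YNCN0017W, the next tRNA gene on chromosome XIV (632599 to 632672), and EMT1 were also lower in OX. The flank downstream of YNCN0017W was at 1.19, 0.829 and 0.970 in OX, at 1.21 to 1.64 in RB and at 1.38 to 1.56 in RC (-0.49 ± 0.09, limma, adjusted p = 0.000641). Its nearest coding start, of ATO2 at 884 bp, had a downstream region that was also lower in OX (-0.60 ± 0.17, adjusted p = 0.00877, r = 0.81 with the flank). The flank downstream of EMT1, an elongator methionine gene, was at 0.395, 0.405 and 0.324 in OX, at 0.416 to 0.620 in RB and at 0.460 to 0.662 in RC (-0.48 ± 0.11, adjusted p = 0.00262). Here the nearest coding start was 1726 bp away, and the region downstream of that start, of the protease gene YPS7, moved the other way (0.37 ± 0.07, adjusted p = 0.00108; r = -0.62).

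**Figure D5:**
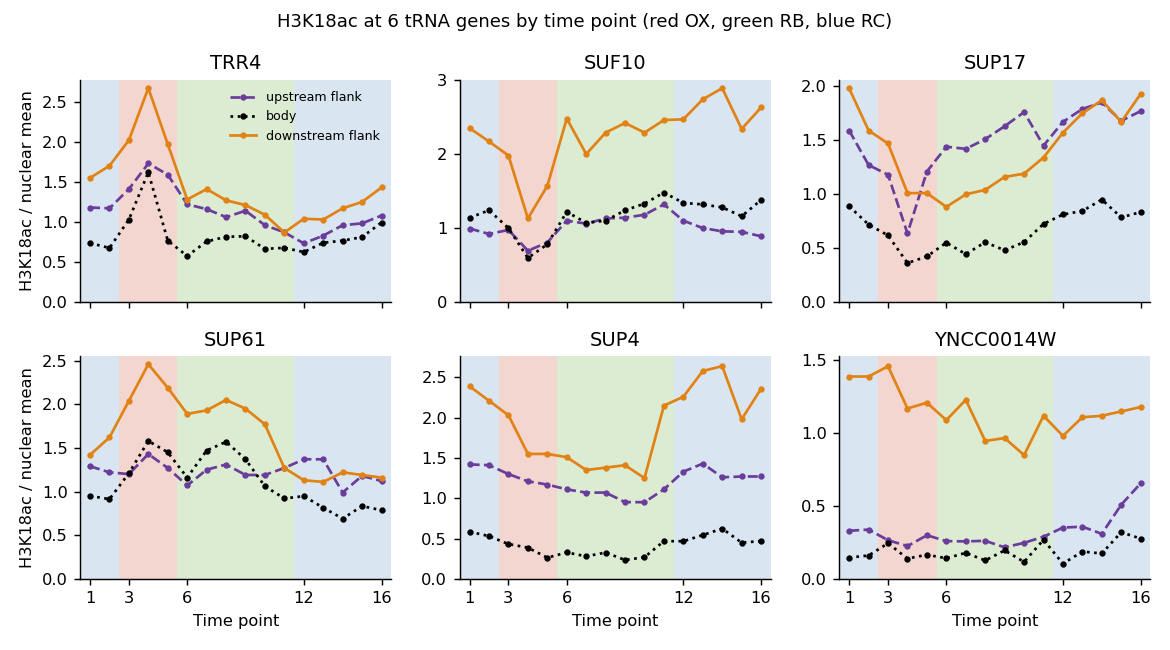
H3K18ac level (coverage divided by the nuclear mean) of the upstream flank, body and downstream flank of 6 tRNA genes at the 16 time points, 1 library each, with OX shaded red, RB green and RC blue. TRR4 peaks at 2.67 and SUF10 dips to 1.13 at time point 4, SUP17 is highest in RC downstream, and the upstream flank of YNCC0014W stays below its downstream flank.

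The flanks apart named for a peak in RB were at low levels. SUF1, a frameshift suppressor locus, had an upstream flank that was at 0.460, 0.580 and 0.662 in OX, at 0.696, 0.828 and 1.02 (lowest, median, highest) in RB, and at 0.497, 0.597 and 0.686 in RC (0.46 ± 0.09, limma, adjusted p = 0.0016). YNCE0012W had an upstream flank at 0.452, 0.565 and 0.727 in OX, at 0.751, 0.846 and 1.00 in RB, and at 0.505, 0.601 and 0.747 in RC (0.46 ± 0.10, adjusted p = 0.00303). In each, the lowest RB time point exceeded the highest of the other phases by a narrow margin. The nearest coding genes, the phospholipid regulator INO4 for SUF1 and the proteasome subunit PRE1 for YNCE0012W, had RB differences of 0.07 ± 0.05 and 0.02 ± 0.07 that did not pass the test. YNCL0038W was similar in its downstream flank, at 0.448 to 0.543 in OX, 0.616 to 0.889 in RB and 0.429 to 0.535 in RC (0.40 ± 0.08, limma, adjusted p = 0.00175).

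The flanks apart named for a low in RB had higher levels. Downstream of YNCL0050C they were 2.12, 1.79 and 1.69 in OX, 1.30, 1.48 and 1.67 in RB, and 1.87, 2.11 and 2.31 in RC (-0.38 ± 0.06, limma, adjusted p = 0.00084). Downstream of YNCG0020C, the flank was at 1.86, 1.64 and 1.02 in OX, at 0.879 to 1.02 in RB and at 1.16 to 1.93 in RC (-0.58 ± 0.12, adjusted p = 0.00205), 353 bp from CGR1, a nucleolar factor of rRNA processing, which had a like RB difference (-0.59 ± 0.14, adjusted p = 0.00618). The other phases were unlike: only CGR1 was called in OX (0.81 ± 0.17, limma, adjusted p = 0.00173) and only the flank in RC (0.34 ± 0.12, adjusted p = 0.0229). In both flanks the highest RB time point lay close to the lowest OX time point. SUP4, a tyrosine gene much used as a model for transcription by polymerase III, had an upstream flank at 1.30, 1.21 and 1.17 in OX, at 0.951 to 1.11 in RB and at 1.26 to 1.43 in RC (-0.27 ± 0.05, adjusted p = 0.00186).

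Among the flanks apart separated in RC, the largest rise was beside SUP17, a suppressor locus that encodes a serine tRNA. Its downstream flank (chromosome IX, 248932 to 249231) was at 1.47, 1.01 and 1.01 in OX, at 0.882, 1.10 and 1.34 in RB and at 1.57, 1.75 and 1.98 in RC. Every RC time point was above all others (0.61 ± 0.09, limma, adjusted p = 0.00034). The SUP17 body rose with it (0.718 to 0.950 in RC, 0.63 on the log2 scale, adjusted p = 0.000391). The upstream flank of SUP17, 154 bp from RGI2, a gene of respiratory growth, was also higher in RC, without full separation (0.41 ± 0.11, limma, adjusted p = 0.00567). Unlike the downstream flank, it was separated in OX, where it was lowest, at 1.18, 0.636 and 1.21, against 1.42 to 1.76 in RB and 1.27 to 1.85 in RC (OX difference -0.66 ± 0.13, limma, adjusted p = 0.00117).

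Other flanks apart with a full separation in RC lay on both sides of the average. Downstream of YNCI0005W, the level was 1.21, 1.28 and 1.35 in RC, against 0.688 to 1.18 in OX and 0.629 to 0.922 in RB (0.57 ± 0.09, limma, adjusted p = 0.000407). The region downstream of the nearest coding start, of AIR1 at 967 bp, had a difference of -0.50 ± 0.14 in RC. Upstream of YNCP0009W, the level was 0.769 to 0.953 in RC, against 0.510 to 0.750 in OX and 0.489 to 0.735 in RB (0.48 ± 0.09, adjusted p = 0.000593). There the downstream region of the nearest coding gene, REC8 at 591 bp, was higher in RC too (0.24 ± 0.07, adjusted p = 0.00828, r = 0.80 with the flank). Lower in RC were the flank downstream of YNCD0005C, with 0.609 to 0.761 in RC, against 0.825 to 1.27 in OX and 0.947 to 1.16 in RB (-0.55 ± 0.08, adjusted p = 0.00034), and the flank upstream of YNCP0010W.

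YNCP0010W (chromosome XVI, 582062 to 582134) had flanks that took different courses over the phases. Upstream, 566 bp from RPA135, the second-largest subunit of RNA polymerase I, the level was 1.66, 1.88 and 1.55 in OX, 1.40, 1.52 and 1.59 in RB and 0.998, 1.17 and 1.33 in RC. RC was below all other time points (-0.44 ± 0.06, limma, adjusted p = 0.000315). RPA135 itself had an OX difference of 1.26 ± 0.21 (adjusted p = 0.000254) and an RC difference of -0.87 ± 0.17. The downstream flank lies near a start, 300 bp from that of MRA1. Downstream, the level was 1.03, 0.765 and 0.900 in OX, 1.19, 1.41 and 1.52 in RB and 0.975, 1.09 and 1.15 in RC, so RB lay above all others (0.46 ± 0.07, adjusted p = 0.000406). In OX the sides went opposite ways, higher upstream (0.33 ± 0.08, limma, adjusted p = 0.00252) and lower downstream (-0.41 ± 0.08, adjusted p = 0.000804).

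Among flanks near a coding start, the largest rises in OX ran with the gene at that start. YNCG0007C has an upstream flank that contains the start of SUA5, an enzyme of tRNA modification, and that was at 0.928, 1.39 and 1.17 in OX, at 0.420 to 0.694 in RB and at 0.390 to 0.797 in RC (0.85 ± 0.17, limma, adjusted p = 0.00096; r = 0.94 with the overlapping downstream region of SUA5). YNCN0006W had a downstream flank, 62 bp from KRE33, an acetyltransferase of rRNA and tRNA, at 2.11, 2.77 and 2.25 in OX, at 0.925 to 1.52 in RB and at 0.824 to 1.69 in RC (0.81 ± 0.15, adjusted p = 0.000722; r = 0.97). OX lay above all other time points in both.

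The single-copy gene SUP61 had a downstream flank that contains the start of BUD31, a splicing factor. It was at 2.04, 2.46 and 2.19 in OX, at 1.27, 1.91 and 2.05 in RB, and at 1.11, 1.19 and 1.62 in RC (OX difference 0.53 ± 0.12, limma, adjusted p = 0.00198; RC difference -0.63 ± 0.09, adjusted p = 0.000347). The SUP61 body had 1.21 to 1.58 in OX, 0.921 to 1.57 in RB and 0.690 to 0.950 in RC (RC difference -0.59, adjusted p = 0.000517). Its upstream flank, 377 bp from the same start, was at 1.20 to 1.43 in OX, 1.07 to 1.31 in RB and 0.989 to 1.37 in RC, and its differences did not pass the test in any phase.

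Near coding starts, the flanks separated upwards in RC lay at ISD11, a factor of iron-sulfur cluster assembly, and YKU70, a subunit of the Ku DNA-end binding complex. The flank downstream of YNCE0014W, 61 bp from ISD11, was at 2.01, 1.47 and 1.34 in OX, at 1.15, 1.26 and 2.02 in RB and at 2.10, 2.48 and 2.71 in RC (0.70 ± 0.10, limma, adjusted p = 0.00034). The flank downstream of the tyrosine gene SUP8, which contains the YKU70 start, was at 1.78, 1.11 and 1.30 in OX, at 1.51 to 1.88 in RB and at 1.96 to 2.22 in RC (0.44 ± 0.07, limma, adjusted p = 0.000493). Its r with the downstream region of YKU70 was 0.99, but the SUP8 flank and that region share bases. SUP4 had a downstream flank at 2.03, 1.55 and 1.55 in OX, at 1.25, 1.40 and 2.15 in RB and at 1.98, 2.36 and 2.64 in RC (0.53 ± 0.10, adjusted p = 0.000602), and here RC and the other phases overlapped.

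Further flanks near a start showed full separation of a phase. YNCP0023W had a downstream flank at 1.52, 0.902 and 1.51 in OX, against 1.78 to 2.27 in RB and 1.86 to 2.47 in RC (-0.65 ± 0.11, limma, adjusted p = 0.000304). The flank upstream of YNCI0010C, 209 bp from the telomerase subunit gene EST3, was at 0.854 to 1.17 in RB, above 0.690 to 0.841 in OX and 0.584 to 0.843 in RC. The flank upstream of YNCI0003C, 124 bp from the kinase gene PRK1, was at 1.48 to 1.74 in RB, below 1.82 to 2.03 in OX and 1.77 to 2.12 in RC, and the flank downstream of YNCO0005W, which contains the start of the ubiquitin ligase gene PSH1, was at 1.03 to 1.17 in RB, below 1.38 to 1.59 in OX and 1.20 to 1.47 in RC.

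TRT2, CDC65 and SUF16 showed no full separation of a phase in their flanks. TRT2, the threonine gene between CBT1 and STE6, stayed between 1.64 and 2.21 upstream and between 1.31 and 2.09 downstream, with RB lower downstream (-0.37 ± 0.07, limma, adjusted p = 0.00186). Smaller differences also passed for TRT2, in RB upstream (-0.17 ± 0.06, adjusted p = 0.0296) and in RC downstream (0.20 ± 0.07, adjusted p = 0.0271), the first lost under 11 of 28 alternatives and the second under 4, among them leaving out time point 5, 14 or 16. CDC65, the glutamine gene, was at 1.54 to 2.20 downstream and 0.723 to 1.25 upstream, where 73.7% of the bases were covered, and no phase difference passed the test on either side. SUF16 had 0.571 ± 0.0747 in OX (SD, n = 3), 0.441 ± 0.0468 in RB (n = 6) and 0.400 ± 0.0416 in RC (n = 7) upstream, where 74.0% of the bases were covered, and 2.38 ± 0.287, 1.83 ± 0.259 and 1.71 ± 0.288 downstream. Its OX differences were 0.37 ± 0.09 upstream (adjusted p = 0.00547) and 0.42 ± 0.12 downstream (adjusted p = 0.0139), and both lost the call without time point 4. SUF16 was also lower in RC, with differences of -0.27 ± 0.08 upstream (limma, adjusted p = 0.00822) and -0.28 ± 0.10 downstream (adjusted p = 0.0282), the downstream call being lost without time point 4, 12 or 15.

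The course of a flank over time resembled that of the nearest coding gene the more, the closer that gene began. Over the 16 time points, the correlation between a flank and the 300 bp downstream of its nearest coding start had a median of 0.89 in 82 flanks near a start that share bases with that region, and of 0.57 in 110 near flanks that do not. It was 0.34 in 184 flanks apart with the start within 1000 bp and 0.08 in 116 with the start farther away (quartiles -0.30 and 0.36). All points share the same libraries and scaling, so these values are a description.

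Genes for the polymerase III machinery carried a different pattern at their own starts from the flanks of its tRNA targets. In the 300 bp downstream of the start, 23 of 28 listed genes differed between the phases (82.1%, beside 64.6% of coding downstream regions). In OX 19 were higher and 2 lower, where 30.9% of coding downstream regions were higher and 14.4% lower. The median OX difference was 0.51, beside 0.06 over those regions. RPC19 and RPC40, which are among the listed subunits shared with polymerase I, had differences of 1.15 ± 0.19 and 1.02 ± 0.16. RPC37 and RPC53, which act in termination and reinitiation, had 0.93 ± 0.13 and 0.84 ± 0.12. The list also holds subunits shared with both polymerases I and II, among them RPC10 (0.87 ± 0.15), so it is not specific to polymerase III. RPC19 stood at 2.92, 3.37 and 2.73 in OX, at 0.917, 1.24 and 1.40 in RB and at 0.819, 1.44 and 2.16 in RC, with OX above all other time points. The lower ones were TFC3 (-0.20 ± 0.07) and TFC8 (-0.19 ± 0.06), which encode subunits of TFIIIC. In RB 1 was higher and 14 lower (6.62% and 24.3% of coding downstream regions), and in RC 2 were higher and 18 lower (23.2% and 25.4%). The OX count stayed at 17 to 19 higher under the other scalings and without any single OX time point, whereas the RB count became 3 higher and 5 lower after division by median ratios and 0 higher and 7 lower without time point 4.

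Genes of tRNA maturation had a like pattern. Of 20 tested, 15 differed between the phases (75%, beside 64.6% of coding downstream regions), and 12 were higher in OX with none lower (beside 30.9% and 14.4%), with a median difference of 0.30. They include LHP1, the yeast La protein that binds new tRNA ends (0.81 ± 0.12), and POP1, a protein of RNase P (0.78 ± 0.13). SEN34, a subunit of the splicing endonuclease, was the one higher in RB (0.43, limma, adjusted p = 0.00333), where 11 others were lower (beside 24.3%), and 9 were lower in RC (beside 25.4%). Without time point 4, 8 were higher in OX. After division by median ratios, 1 was higher and 4 were lower in RB.

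Among the flanks of the other polymerase III genes (RPR1, SNR52, SCR1 and SNR6), 6 lay apart from coding starts, at levels between 0.960 and 2.56, and 5 of all 8 differed between the phases (62.5%, beside 66.5% of all regions). The other 2, downstream of RPR1 (2.86, 156 bp from TIM9) and upstream of SCR1, lay near a start. SCR1, the RNA of the signal recognition particle, had an upstream flank, which contains the start of YER137C, at 2.07 in OX on average, 1.44 in RB and 1.41 in RC (OX difference 0.51 ± 0.09, limma, adjusted p = 0.000304). Upstream of RPR1, the RNA of RNase P, the flank lay apart from starts and was at 1.72 in OX, 1.99 in RB and 2.11 in RC (-0.25 ± 0.07, adjusted p = 0.00837).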

How the data were processed

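The deposited signal is the number of reads covering each base, 1 file per time point. The authors trimmed the reads with Trimmomatic 0.32, mapped them to the yeast genome of Ensembl release 91 (Bowtie in the study's methods, STAR in the submitters' processing notes), dropped reads with several matches, and took out duplicates with SAMtools. Coverage came from bedtools, with no scaling for depth and no division by H3. Strands came from the systematic names.

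The mean of each region was set relative to the nuclear mean of its library, and log2(level + 0.1) was fitted with limma 3.58.1 (R 4.3.3) for regions with a mean coverage of at least 5, each phase against the mean of the others, Benjamini-Hochberg over 12229 regions. Python 3.11.15, numpy 2.4.6, pandas 2.3.3 and matplotlib 3.10.9 did the rest. As a check of the procedure, data were simulated with 200 changed regions of 12229. In the OX contrast, 81% of changes of 0.5 and 98% of changes of 1 (log2) were recovered, with 14 false calls. The real data were unlike this setting: 5152 regions were called in OX, and 1925 without time point 4. The 14 therefore gives no rate of false calls for the real data. How shifts shared by a whole library affect that rate was not tested.

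The members and lists were chosen with earlier results of these data known. Named flanks are the largest separated calls per phase and direction (3 apart, 2 near a start), the 4 highest and 4 lowest levels apart with at least 80% of bases covered, and genes listed by name. Of these, names could be matched by symbol only: 47 of the 275 genes have one, and grouping by anticodon was replaced by families of symbols. Bodies and RPC, TFC and processing genes named in passing were chosen after their values were seen. Alternatives were pseudocounts of 0.01 and 1, a coverage minimum of 20 or none, other scalings, flanks of 150 or 500 bp or moved out by 60 bp, covered bases only, a ceiling correction, depth as a covariate, a cosine curve over the cycle in place of phases, and leaving out each time point; the values for bodies and the coverage-matched comparison were added after seeing the data.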

Additional observations from a re-analysis of the deposited data

Results flagged for a closer look

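In groups of 6 or 7 time points, a value was looked at again when its gap to the nearest other value took up an unusual share of the group's range (Dixon's test at its 95% critical value). Of 108 groups from 54 values, 9 met this, all of them in RB, and chance gives about 1 in 20. Of the 9, 7 were at time point 11, the last of RB, and 2 at time point 6, the first.

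At time point 11, the flank downstream of SUP4 was at 2.15, against 1.51 for the next RB value and 1.98 to 2.64 in RC. The flank downstream of YNCE0014W was at 2.02, against 1.38, and that downstream of YNCE0023W at 2.81, against 2.39. Low values at time point 11 were 1.27 downstream of SUP61, against 1.77, 0.925 downstream of YNCN0006W, against 1.32, 0.420 upstream of YNCG0007C, against 0.595, and 0.570 upstream of SUF17, against 0.707. At time point 6, the flank downstream of YNCL0038W was at 0.889, against 0.683, and the median of all downstream flanks was 1.25, against 1.22.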

How the results depend on the processing

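No paired analysis was possible because each time-point number occurs once, so phases share no replicate numbers. With each time point left out in turn, the flanks apart called numbered 124 to 161 between the phases, in OX 15 to 81, in RB 49 to 92 and in RC 106 to 136. The 15 came without time point 4. When only flanks that hold a start were set aside, 237 differed between the phases, 110 in OX, 109 in RB and 187 in RC, since more flanks were counted.

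Median levels of the flanks apart moved to 0.926 upstream and 0.778 downstream with flanks of 150 bp, to 0.936 and 0.996 with 500 bp, and to 0.854 and 0.741 with the ceiling correction. They were 1.06 upstream on covered bases and 1.02 downstream with flanks moved out by 60 bp. The order of the sides turned with 500 bp and with 60 bp. Near a start, upstream flanks had 0.957 with 150 bp, 1.15 moved out by 60 bp, 1.14 on covered bases and 0.957 with the ceiling correction, and downstream flanks 1.30 with 150 bp and 1.70 moved out by 60 bp. The bodies' median was 0.219 with the ceiling correction, and with a coverage minimum of 20 only 26 bodies were tested, of which 15 differed between the phases.

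Of 2204 alternative values for the 79 calls of named flanks, 2078 kept their call, 126 lost it in the same direction and 0 changed direction. OX calls beside SUF16 (both sides), downstream of SUP8 and upstream of YNCL0039W were lost without time point 4. The ceiling and the lack of H3 and of repeat libraries limit what levels and phase differences can show.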

Other observations

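The 24 mitochondrial tRNA genes, left out of the comparisons, had a median coverage of 0.332 times the nuclear mean (0.148 to 0.502 between genes). The mean coverage of the whole mitochondrial chromosome varied between 0.137 and 1.28 times the nuclear mean over the 16 time points.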
